A study of Homo sapiens with 16 samples.

Results

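SW620 and SW480 are established lines of human colon adenocarcinoma cells from one patient: SW480 was grown from the primary tumour and SW620 from a later lymph node metastasis. The untransduced, untreated parental cells of both lines are compared here, with 2 libraries of SW620 (I and II) against 2 libraries of SW480 (I and II), chosen by the line and the absence of transduction or treatment in their labels. These are 4 of the 16 libraries of the series. Both lines were grown in DMEM medium with serum, and polyadenylated RNA was sequenced with a stranded library kit. The other 12 libraries were made from cells that carried either an empty vector or the estrogen receptor beta gene ESR2 (called ERB in the labels). They are SW620 with ERB, SW620 with ERB after solvent (DMSO) or 10 nM estradiol for 24 h, SW620 with empty vector, SW480 with ERB and SW480 with empty vector, again with 2 libraries each. They take no part in the contrast itself. They entered the estimate of the spread between replicates, the filter that set which genes were tested and the scaling of the libraries. Both lines stand for the tumour of 1 patient, and nothing in the labels says that libraries I and II came from separate cultures, so p-values measure only the spread between these libraries.

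Colon epithelium is kept up by stem cells at the crypt base under WNT signals and differentiates, under transcription factors such as HNF4A, CDX2 and the FOXA family, into absorptive enterocytes with a brush border and into goblet and enteroendocrine cells. Tumour cells can lose parts of this programme and take on features of mesenchymal cells, such as matrix proteins, integrins and matrix proteases. NF-kB is a transcription factor that turns on cytokine and chemokine genes, and YAP and TAZ are coactivators that bind DNA through TEAD factors and turn on genes of growth and cell shape.

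Total counts were 14390800 and 14002269 in parental SW620 and 15856301 and 18948283 in parental SW480. ESR1, the gene of estrogen receptor alpha, had 0 reads in all 4, and ESR2 had 0 and 0 reads in SW620 and 2 and 2 reads in SW480. Libraries of the same line differed beyond counting noise, with a chi-square per degree of freedom of 42.9 in SW620 and 166 in SW480. Library II of SW480 stood apart by base composition. Among genes whose transcripts held under 40% G and C, the median log2 deviation from the mean of all libraries was 0.33 and -0.61 in SW620 I and II, and 0.29 and 1.84 in SW480 I and II. Among genes with 60% or more it was -0.83 in SW480 II, against -0.18 in SW480 I. Results were therefore also computed with offsets fitted per library to take out smooth trends with GC content and transcript length. These trends were taken around the mean of each gene over all 16 libraries. The difference between the parental lines was not seen in the medians of the empty vector libraries. Genes called higher and lower in parental SW620 differed by medians of 1.99 and -3.08 (log2) between the parental lines. Between the empty vector libraries labelled SW620 and SW480 these genes differed by medians of 0.04 and 0.01. Single genes did differ there, as given below.

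**Figure D1:**
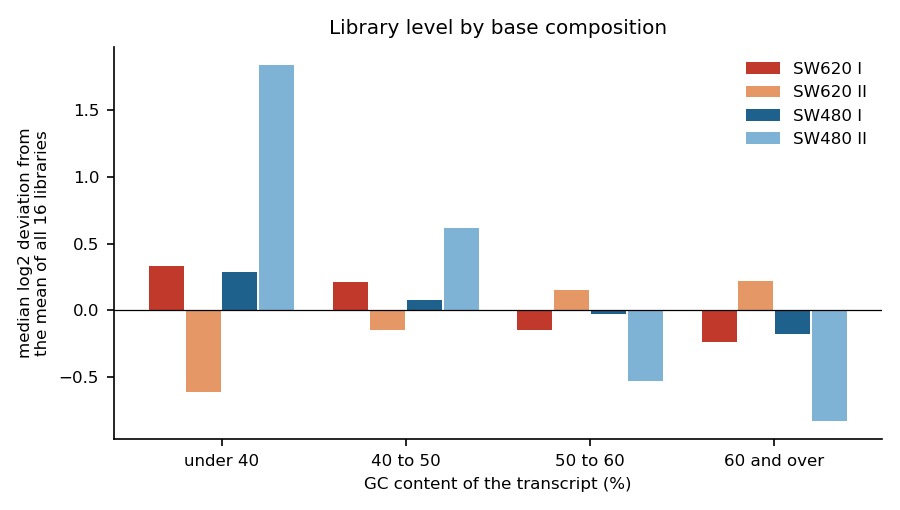
Median log2 deviation of each parental library from the mean of all 16 libraries (vertical axis), over genes in 4 classes of transcript GC content (horizontal axis). SW620 libraries are drawn first and SW480 libraries after them in each class; SW480 II reaches 1.84 in genes under 40% GC and -0.83 in genes of 60% and over.

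Of 17464 genes tested, 3147 (18.0%) were called between the parental lines at an adjusted p under 0.05 in edgeR's quasi-likelihood test. In SW620, 1194 (6.84%) were higher and 1953 (11.2%) were lower than in SW480. The counts of each gene list below are to be read beside these shares. By fitted fold, the lower genes showed the larger differences: 1011 were at least 8-fold lower and 445 at least 32-fold lower, against 219 and 19 genes that were higher by these folds. No read was found in either SW620 library for 208 called genes, and none in either SW480 library for 11. All 1194 higher genes and 1949 of the 1953 lower genes had both libraries of one line above both of the other. Such separation was common: of all 17464 genes tested, 4732 had both SW620 libraries above both SW480 libraries, and 4777 had both below. With the GC and length offsets, 2285 genes (13.1%) were higher and 3394 (19.4%) lower, and 2951 of the 3147 calls were made again in the same direction. With the offsets the calls of CGN, FGFR1, HIST1H2AC, MT-ND6, MYC, PHGR1 and VGLL4, named below, were lost (adjusted p between 0.06 and 0.45). When these offsets were not centred, the median of all genes shifted by 0.18 on the log2 scale and the split became 3173 higher and 2828 lower. Of the genes named below, ADAM17, ADAM19, ALDH1A3, ANXA4, CA9, CCND1, CDH3, CDHR2, CDKN2B, CLDN7, CPVL, CRB3, CRIM1, CTNNB1, ELF3, ESR2, ESRP2, FAS, FGFR1, GPER1, GPX2, HES6, HLA-B, HOXA11, HOXB2, HOXB6, HOXC10, HOXC13, HOXD9, IGFBP7, ITGB7, KRT18, KRT8, LEF1, MGST2, MUC12, NR0B2, NR1H3, NR2F2, P4HA2, PAX6, ROBO2, RPS23, RPS4X, S100A1, SEMA4G, SPRY4, TENM3, TMEM52B, TNC, TP53INP1, VGLL4, VIL1, VLDLR, WNT5A and ZEB1 overlap a tested gene on the other strand, and no source used here says whether counting took account of the strand. The count rests on the shared estimate of the spread. It was 1482 (440 higher, 1042 lower) from the 4 parental libraries alone and 5571 (2244 higher, 3327 lower) without the 4 transduced libraries labelled SW480. It was 2013 without SW620 I, 1358 without SW620 II and 1837 without SW480 II. Log2 differences below are SW620 minus SW480, levels are counts scaled to library size (CPM, with TMM factors), and the median over all genes was -0.05.

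**Figure D2:**
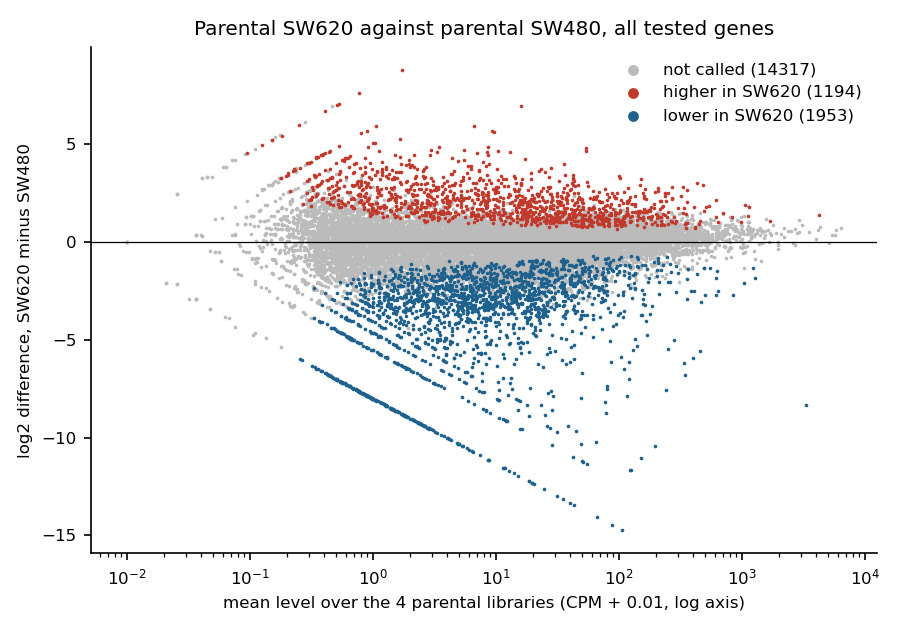
Each point is 1 of the 17464 tested genes, with its mean level over the 4 parental libraries (CPM, log axis) on the horizontal axis and its fitted log2 difference between SW620 and SW480 on the vertical axis. The 1194 higher and 1953 lower genes are coloured, and the straight rows of points at the lower left are genes with 0, 1 or 2 reads in SW620, whose fitted value is no bound.

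Most of the largest differences were in genes without a read in SW620, and their folds are lower bounds that set the mean level in SW480 against a floor of 3 reads over the 2 SW620 libraries. WNT5A, a secreted WNT ligand of the non-canonical kind, had 0 reads in both SW620 libraries and 107 and 316 CPM in SW480, and was at least 2040-fold lower in SW620 (adjusted p = 0.00072). GNG11, a G protein gamma subunit, had 0 reads in both SW620 libraries and 220 and 130 CPM in SW480, and was at least 1690-fold lower in SW620 (adjusted p = 0.00023). PHLDB2, a protein of the cell cortex near adhesions, had 0 reads in both SW620 libraries and 75.7 and 191 CPM in SW480, and was at least 1290-fold lower in SW620 (adjusted p = 0.00052). In SW480 all 3 were abundant. IQGAP2, a scaffold of the actin skeleton, had 0 reads in both SW620 libraries and 30 and 142 CPM in SW480, and was at least 829-fold lower in SW620 (adjusted p = 0.0002). AFF3, a nuclear elongation factor relative, had 0 reads in both SW620 libraries and 43.1 and 83.4 CPM in SW480, and was at least 611-fold lower in SW620 (adjusted p = 0.00012). COL13A1, a transmembrane collagen, had 0 reads in both SW620 libraries and 49.7 and 29.5 CPM in SW480, and was at least 382-fold lower in SW620 (adjusted p = 0.00078). In these 6 genes the SW620 libraries were empty and both SW480 libraries were high. Of the 20 lower genes named by size of the difference, 18 had 0 reads in SW620. IGFBP7, a secreted binding protein of insulin-like growth factors, had 1 and 1 reads in SW620, against 299 and 199 CPM in SW480, a ratio of 3480 (964 to 28800; adjusted p = 6e-06). GPR110, an adhesion G protein-coupled receptor, had 2 and 0 reads in SW620, against 199 and 289 CPM in SW480, a ratio of 3650 (1010 to 30100; adjusted p = 7.6e-05). Ratios here and below are of reads pooled over the libraries of each line, with the same scaling to library size, and carry 95% counting intervals, which like the floors cover counting error only. The others without a read in SW620 were ALPK2, TMEM52B, PLA2G7, ZBED2, PIP5K1B, CHST2 and TENM3. PSG1, CST2, SAA2 and VSTM1 were also among the 20, and reads of each can be shared with near-identical relatives or alternative copies of the locus.

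The genes that were higher in SW620 differed by smaller folds. CYTL1, a small secreted protein, had 27.7 and 35.6 CPM in SW620 and 0.432 and 0.0873 CPM in SW480 (log2 difference 6.98, SE 0.6, adjusted p = 3e-05). The level of PLXNA2, a semaphorin receptor, was 12.2 and 13.9 CPM in SW620 against 0.185 and 0.218 CPM in SW480 (log2 difference 5.95, SE 0.4, adjusted p = 7.3e-06). PROM1, the stem cell surface antigen CD133, was at 23.1 and 13.5 CPM in SW620, against 0.247 and 0.436 CPM in SW480 (log2 difference 5.68, SE 0.58, adjusted p = 7.6e-05). All 3 were close to absent from SW480. CPVL, a serine carboxypeptidase, had 23.5 and 26.2 CPM in SW620 and 0.556 and 1.4 CPM in SW480 (log2 difference 4.63, SE 0.44, adjusted p = 5.3e-05). The level of CA9, a carbonic anhydrase of the cell surface induced by low oxygen, was 82 and 128 CPM in SW620 against 4.08 and 3.49 CPM in SW480 (log2 difference 4.79, SE 0.69, adjusted p = 0.00058). In each of these 5 genes both SW620 libraries were high and both SW480 libraries low. The other higher genes named by size were the brush border gene CDHR2, the trefoil peptide gene TFF3, PRODH2, CAPN9, GAL3ST1, TPPP3, TMEM178B, the potassium channel gene KCNK10, ARHGAP22, the sterol exporter gene ABCG1, TSPAN32, the prohormone processing gene CPE, FSTL4, HYAL1 and AC106876.2, with log2 differences between 4.18 and 5.61.

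Among genes of differentiated gut epithelium with enough reads to be tested, more were higher than lower in SW620. Of 39 enterocyte and brush border genes 17 were tested, and the other 22 did not pass the filter on low counts. Of the 17, 8 were higher and 0 lower (median log2 2.0, 1.5 with the GC and length offsets). CA9, which is also on the hypoxia list, is among the 8. Microvilli are built on villin and held together at their tips by protocadherins that bind the adaptor harmonin. VIL1, the villin gene, was at 481 and 583 CPM in SW620, against 110 and 98.8 CPM in SW480 (log2 difference 2.35, SE 0.24, adjusted p = 7.7e-05). USH1C, the harmonin gene, had 168 and 245 CPM in SW620 and 32.1 and 27.7 CPM in SW480 (log2 difference 2.79, SE 0.36, adjusted p = 0.00029). The level of CDHR2, one of the tip protocadherins, was 17.2 and 20.5 CPM in SW620 against 0.309 and 0.436 CPM in SW480 (log2 difference 5.61, SE 0.58, adjusted p = 7.7e-05). VIL1 and USH1C were expressed in both lines, whereas CDHR2 was nearly silent in SW480. EPS8L3, an actin regulator of the EPS8 family, was at 139 and 192 CPM in SW620, against 28.7 and 29 CPM in SW480 (log2 difference 2.52, SE 0.42, adjusted p = 0.0014). CDH17, the intestinal cadherin, was low in both lines, at 2.48 and 2.18 CPM in SW620 and 0 and 0.393 CPM in SW480 (log2 difference 3.38, SE 0.75, adjusted p = 0.0085). The count of higher brush border genes was 7 without SW620 II and 9 without SW480 II.

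Of 36 genes of goblet, Paneth and enteroendocrine cells 17 were tested, and the other 19 did not pass the filter on low counts. Of the 17, 10 were higher and 2 lower in SW620 (median log2 2.25, 2.09 with offsets). TFF3, a trefoil peptide of goblet cells, had 75.3 and 131 CPM in SW620 and 3.33 and 4.67 CPM in SW480 (log2 difference 4.68, SE 0.74, adjusted p = 0.00099). The level of TFF2, another trefoil peptide, was 5.77 and 10.4 CPM in SW620 against 0.494 and 0.916 CPM in SW480 (log2 difference 3.47, SE 0.54, adjusted p = 0.00091). Both trefoil genes were low in SW480, and enteroendocrine genes were low there too. CHGB, a granin of secretory granules, was at 17 and 13.8 CPM in SW620, against 1.79 and 1.05 CPM in SW480 (log2 difference 3.44, SE 0.42, adjusted p = 0.0002). DDC, the decarboxylase that makes serotonin and dopamine, had 3.53 and 2.73 CPM in SW620 and 0.247 and 0.262 CPM in SW480 (log2 difference 3.58, SE 0.51, adjusted p = 0.00052). SCG2, a further granin, was at 3.91 and 2.57 CPM in SW620 and 0.432 and 0.567 CPM in SW480, and SYP, synaptophysin, at 11.6 and 17 CPM in SW620 and 3.58 and 2.44 CPM in SW480. In these genes the lines did not overlap. The lower ones were the membrane mucin MUC12 (log2 difference -2.93) and the Paneth cell defensin DEFA5 (log2 difference -1.94). Also higher were MUC1, MUC5AC, PLA2G2A and CHGA (log2 differences between 1.53 and 2.97). In at least 1 of the fits without SW620 I, SW620 II, SW480 I or SW480 II, MUC1, MUC5AC, CHGA, MUC12, DEFA5 and PLA2G2A were not called (adjusted p up to 0.13, 0.25, 0.14 and 0.19). Without SW620 II the list gave 6 higher and 0 lower genes.

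Of 23 tested transcription factors of the intestinal lineage, 9 were higher and 2 lower (median log2 1.1, 0.8 with offsets). The level of FOXA2, a pioneer factor of endoderm, was 67.5 and 91.3 CPM in SW620 against 15.4 and 12.2 CPM in SW480 (log2 difference 2.52, SE 0.36, adjusted p = 0.0005). HNF4A, a nuclear receptor that drives enterocyte genes, was at 122 and 139 CPM in SW620, against 27.7 and 30.6 CPM in SW480 (log2 difference 2.16, SE 0.24, adjusted p = 0.00011). For both factors both SW620 libraries lay well above both SW480 libraries. GFI1, a repressor of secretory cells, had 13.1 and 12.7 CPM in SW620 and 4.26 and 5.06 CPM in SW480 (log2 difference 1.46, SE 0.3, adjusted p = 0.005). FOXA3 was also higher (log2 difference 2.61, SE 0.51, adjusted p = 0.0042). CDX2, the caudal factor of hindgut, was at 15 and 20.8 CPM in SW620 and 9.02 and 7.72 CPM in SW480 and did not pass the test (log2 difference 1.1, SE 0.41, adjusted p = 0.084). PAX6, a factor of neuroendocrine and eye development, was lower, at 2.05 and 1.79 CPM in SW620 and 20.7 and 47.3 CPM in SW480 (log2 difference -4.14, SE 0.45, adjusted p = 0.00011). Also higher were ELF3, ISX, ID1 and ASCL2 (log2 differences between 1.89 and 2.55). ELF3, ISX, ASCL2 and ID1 did not pass the test in at least 1 of the fits without SW620 II or SW480 II (adjusted p up to 0.12 and 0.083). Without SW620 II, and likewise without SW480 II, 6 were higher and 1 lower.

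Genes common to epithelia stood on both sides. Of 38 tested junction and polarity genes, 7 were higher and 4 lower (median log2 0.52), against 6.84% of all genes higher and 11.2% lower. The share lower thus lies near that of all genes. From the 4 parental libraries alone 1 junction gene was higher and 3 lower. Of 15 keratins 2 were higher and 3 lower (1 higher and 3 lower with RLE size factors, those of DESeq2). CDH1, which encodes E-cadherin, was at 18.7 and 14.6 CPM in SW620 and 8.27 and 14.4 CPM in SW480 (log2 difference 0.55, SE 0.39, adjusted p = 0.36), and EPCAM was at 184 and 112 CPM in SW620 and 57.4 and 129 CPM in SW480 (log2 difference 0.66, SE 0.61, adjusted p = 0.48), with the libraries of the lines overlapping for EPCAM. The level of KRT5, a keratin of basal and squamous epithelium, was 8.25 and 9.97 CPM in SW620 against 851 and 470 CPM in SW480 (log2 difference -6.18, SE 0.54, adjusted p = 3.3e-05). KRT23, a keratin of gut and other epithelia, was at 13.9 and 16.4 CPM in SW620, against 146 and 107 CPM in SW480 (log2 difference -3.06, SE 0.33, adjusted p = 9.5e-05). CDH3, the P-cadherin gene, had 0.496 and 0.389 CPM in SW620 and 3.58 and 2.79 CPM in SW480 (log2 difference -2.81, SE 0.4, adjusted p = 0.00054). ESRP2, a splicing regulator of epithelial cells, was higher (log2 difference 1.41, SE 0.27, adjusted p = 0.0032). Of 12 tested colon epithelium markers 4 were higher and 0 lower, and the most abundant of them, KRT8, KRT18 and KRT19, were high in both lines, with the lowest library at 1220 CPM, 1150 CPM and 273 CPM. Also higher were CGN, F11R and CRB3 (log2 differences between 1.28 and 2.13). Also lower were PARD6B, CLDN7 and CTNNB1 (log2 differences between -2.82 and -2.07). Also higher was KRT15 (log2 difference 1.36). Also lower was KRT13 (log2 difference -3.53). PHGR1 was higher as well, with at most 3 reads over both SW480 libraries. The calls of CLDN7, CTNNB1, KRT13, PHGR1, KRT19, F11R, CRB3, PARD6B and KRT15 were lost in at least 1 of the fits without SW620 I, SW620 II, SW480 I or SW480 II (adjusted p up to 0.12, 0.27, 0.072 and 0.3). The junction counts were 2 higher and 1 lower without SW620 II, and those of the colon epithelium markers 2 higher and 0 lower without SW620 I, SW620 II or SW480 II.

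Markers of other cell types were few. Of 11 fibroblast markers 6 were tested, of which 0 were higher and 2, ACTA2 and COL6A3, were lower. Of 14 leukocyte markers 5 were tested and CD4 alone was higher, at 30.4 and 43 CPM in SW620 and 5.87 and 7.51 CPM in SW480 (log2 difference 2.45, SE 0.47, adjusted p = 0.0036), and 2 higher and 3 lower with offsets. Of 9 endothelial markers only VWF was tested, at 1.24 and 1.48 CPM in SW620 and 1.24 and 0.655 CPM in SW480. Summed over each list, fibroblast markers took 7.63 and 7.4 CPM in SW620 and 26.6 and 27.1 CPM in SW480, leukocyte markers 32.8 and 45.9 CPM in SW620 and 10.7 and 11.6 CPM in SW480 and endothelial markers 1.36 and 1.48 CPM in SW620 and 1.3 and 0.873 CPM in SW480. No read was found in any of the 4 libraries for COL3A1, DCN and FAP of the fibroblast markers. No read was found in any of the 4 libraries for PTPRC, MS4A1 and NKG7 of the leukocyte markers. No read was found in any of the 4 libraries for PECAM1, KDR, TEK, CLDN5, ERG and EMCN of the endothelial markers.

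Of all lists, NF-kB and inflammatory target genes had the lowest median difference: 27 of 35 tested members were lower in SW620 and 0 higher (median log2 -3.23, -3.5 with offsets). The level of ICAM1, an adhesion molecule for leukocytes, was 1.55 and 2.18 CPM in SW620 against 255 and 227 CPM in SW480 (log2 difference -7.01, SE 0.49, adjusted p = 8.8e-06). SAA1, an acute phase apolipoprotein, was at 0.186 and 0.0779 CPM in SW620, against 438 and 169 CPM in SW480 (log2 difference -11.04, SE 1.02, adjusted p = 9.4e-05). Its neighbour SAA2 had no read in SW620, and reads of this pair can be exchanged. LCN2, the iron-siderophore carrier lipocalin 2, had 0.062 and 0.234 CPM in SW620 and 65.8 and 48 CPM in SW480 (log2 difference -8.58, SE 1.22, adjusted p = 0.00051). CSF2, the granulocyte-macrophage growth factor GM-CSF, had 1 and 1 reads in SW620, against 22.1 and 18.9 CPM in SW480, a ratio of 293 (80.8 to 2420; adjusted p = 5.3e-05). Of these, SAA1 and ICAM1 exceeded 100 CPM in both SW480 libraries. IL32, a cytokine of epithelial and immune cells, had 0 and 2 reads in SW620, against 28.5 and 13.6 CPM in SW480, a ratio of 287 (79.1 to 2370; adjusted p = 0.00023). CCL2, a chemokine for monocytes, had 0 reads in both SW620 libraries and 6.55 and 17.5 CPM in SW480, and was at least 116-fold lower in SW620 (adjusted p = 0.003). In all of these the SW620 libraries held at most a few reads or CPM and the SW480 libraries lay far above.

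The chemokines that attract neutrophils sit next to each other on chromosome 4 and were lower together. The level of CXCL1, the founding member of the cluster, was 0.868 and 0.934 CPM in SW620 against 30.7 and 31.8 CPM in SW480 (log2 difference -5.11, SE 0.45, adjusted p = 3.4e-05). CXCL3, its close copy, was at 0.806 and 1.09 CPM in SW620, against 9.26 and 8.95 CPM in SW480 (log2 difference -3.26, SE 0.4, adjusted p = 0.00022). CXCL2, another close copy, had 3 and 0 reads in SW620, against 6.55 and 7.94 CPM in SW480, a ratio of 71.1 (24.1 to 347; adjusted p = 0.0024). IL8, the gene of interleukin 8 (CXCL8), had 0.806 and 0.389 CPM in SW620 and 19.6 and 43 CPM in SW480 (log2 difference -5.67, SE 0.77, adjusted p = 0.00038). The 3 copies are alike in sequence, and reads can be exchanged between them. CXCL6 was at 1.18 and 1.17 CPM in SW620 and 4.63 and 11 CPM in SW480. Components of the pathway itself were lower as well. TRAF1, an adaptor of tumour necrosis factor receptors, was at 0.992 and 1.48 CPM in SW620 and 11.1 and 9.95 CPM in SW480 (log2 difference -3.09, SE 0.47, adjusted p = 0.00082), and BIRC3, an inhibitor of apoptosis bound to the same receptors, was at 0.558 and 0.156 CPM in SW620 and 6.55 and 39 CPM in SW480 (log2 difference -5.92, SE 0.88, adjusted p = 0.0007). C3, the central complement protein, was at 0.31 and 0.156 CPM in SW620 and 9.63 and 5.19 CPM in SW480 (log2 difference -4.91, SE 0.68, adjusted p = 0.00046). Also lower were RELB, NFKBIZ, TNFAIP3, TNIP1, CCL20, CSF1, BCL3 and CD83 (log2 differences between -3.23 and -1.57). LTB, PTGS2 and TNFRSF9 were lower as well, with at most 3 reads over both SW620 libraries. In at least 1 of the fits without SW620 I, SW620 II, SW480 I or SW480 II, RELB, TNFAIP3, TNIP1, CCL20, CSF1, PTGS2, BCL3, CD83, CXCL6 and NFKBIZ were not called (adjusted p up to 0.19, 0.27, 0.15 and 0.33). The count of lower members was 17 without SW620 II, 18 without SW620 I and 21 without SW480 II, with 0 higher in each.

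The promoters of this list were read from RefSeq (build GRCh38.p14; the deposited counts are of GRCh37), as windows from 250 bases before to 50 bases after the start of each gene. The search was for GGNNTTTCC, a short form of the site bound by NF-kB, on both strands. It was found in 15 of the 21 lower members with a window in the table (71.4%), in 7 of 13 other members and in 6.26% of all 35116 windows. The list was chosen as NF-kB and inflammatory targets, so its share beside that of all windows says nothing about these lines. The chemokine windows are shown because each carries the motif close to the start, as a pair of sites in the 3 close copies and as a single site in CXCL6 and IL8. Each stretch runs from base -130 to base -31 before the start, 5′ to 3′ on the strand of the gene, with the motif in capitals.
CXCL1: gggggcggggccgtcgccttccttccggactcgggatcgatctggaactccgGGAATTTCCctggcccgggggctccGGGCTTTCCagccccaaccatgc
CXCL2: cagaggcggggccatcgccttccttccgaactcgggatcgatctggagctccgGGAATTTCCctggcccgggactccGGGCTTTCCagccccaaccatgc
CXCL3: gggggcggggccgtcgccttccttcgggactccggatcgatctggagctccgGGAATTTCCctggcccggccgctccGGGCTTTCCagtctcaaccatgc
CXCL6: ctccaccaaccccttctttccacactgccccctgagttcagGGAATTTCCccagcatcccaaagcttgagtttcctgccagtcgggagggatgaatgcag
IL8: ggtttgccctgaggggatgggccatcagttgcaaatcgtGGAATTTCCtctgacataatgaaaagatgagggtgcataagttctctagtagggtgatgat
The stretches lie at chr4:73869263-73869362 (plus strand), chr4:74099226-74099325 (minus strand), chr4:74038720-74038819 (minus strand), chr4:73836548-73836647 (plus strand) and chr4:73740439-73740538 (plus strand). The motif began at bases -78 and -53 in CXCL1 and CXCL3, at -77 and -53 in CXCL2, at -89 in CXCL6 and at -91 in IL8. A match describes the letters of the window and not binding in these cells.

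**Figure D3:**
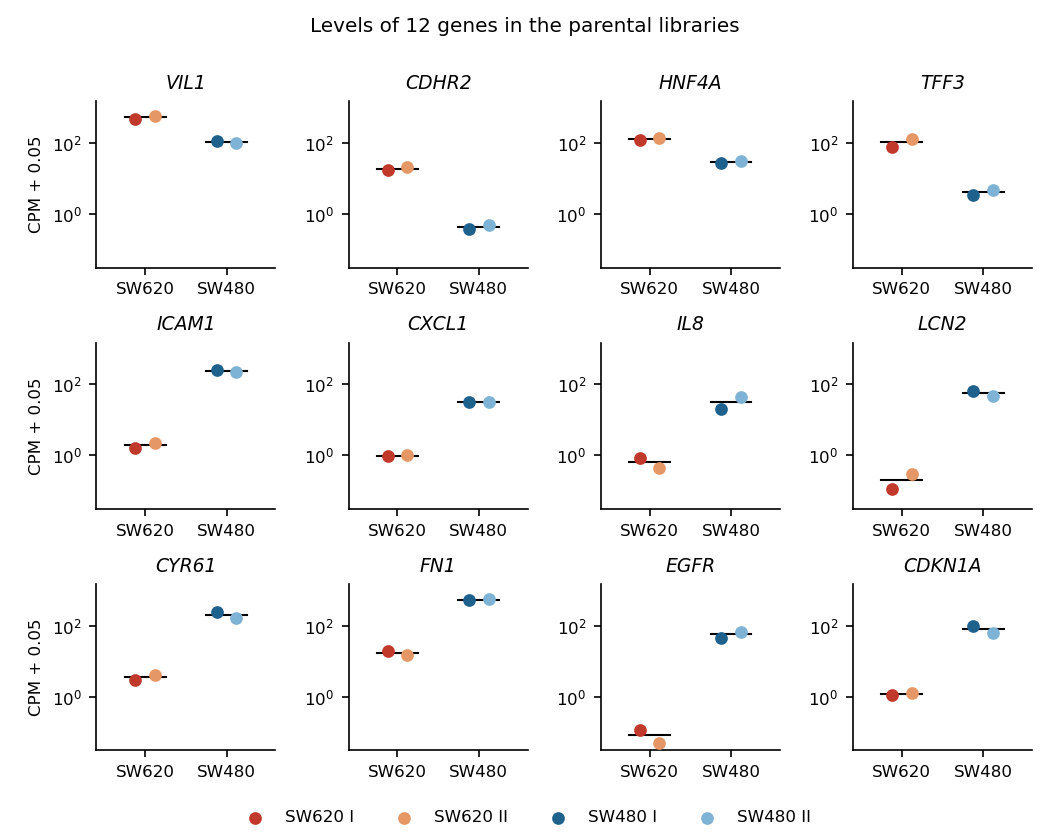
Level of 12 genes in each parental library (CPM plus 0.05 on a log axis), with the SW620 libraries on the left and the SW480 libraries on the right of each panel and a bar at the mean of each line. The epithelial genes of the upper row lie higher in SW620, and the 8 genes of the lower rows (inflammatory genes, then CYR61, FN1, EGFR and CDKN1A) lie lower in SW620.

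Genes on the list of YAP and TAZ targets were lower in SW620: 16 of 27 tested were lower and 1 higher (median log2 -2.31, -2.71 with offsets). The list holds targets together with members of the pathway itself, such as WWTR1, TEAD2, TEAD3 and VGLL4. The level of CYR61, a matrix protein and classical YAP target, was 2.85 and 4.13 CPM in SW620 against 241 and 170 CPM in SW480 (log2 difference -5.88, SE 0.37, adjusted p = 6e-06). CTGF, connective tissue growth factor, its relative, was at 1.36 and 0.934 CPM in SW620, against 23.7 and 15.7 CPM in SW480 (log2 difference -4.08, SE 0.42, adjusted p = 7.6e-05). ANKRD1, a nuclear ankyrin repeat protein, had 3 and 0 reads in SW620, against 104 and 158 CPM in SW480, a ratio of 1310 (448 to 6360; adjusted p = 8.7e-05). These are classical reporters of YAP activity. AMOTL1, a junction protein that binds YAP, had 1 and 0 reads in SW620, against 96.5 and 103 CPM in SW480, a ratio of 2910 (521 to 115000; adjusted p = 8.8e-05). NT5E, the surface enzyme CD73, had 1 and 2 reads in SW620, against 92.8 and 86.4 CPM in SW480, a ratio of 860 (294 to 4170; adjusted p = 2.4e-05). LATS2, a kinase that restrains YAP and is itself a target, was at 3.66 and 3.27 CPM in SW620 and 31.1 and 50.1 CPM in SW480 (log2 difference -3.55, SE 0.42, adjusted p = 0.00017). WWTR1, the gene of TAZ, was at 5.64 and 5.84 CPM in SW620 and 19.6 and 37.4 CPM in SW480 (log2 difference -2.31, SE 0.41, adjusted p = 0.0021). In all 7 genes both SW480 libraries lay above both SW620 libraries. VGLL4, a TEAD cofactor, was the higher one (log2 difference 1.2, SE 0.3, adjusted p = 0.015). It was not called with the offsets (adjusted p = 0.45). Also lower were AMOTL2, TEAD2, TEAD3, CRIM1 and ARHGEF17 (log2 differences between -8.72 and -1.37). DLC1 was lower as well, with at most 3 reads over both SW620 libraries. TEAD2, TEAD3 and VGLL4 did not pass the test in at least 1 of the fits without SW620 I, SW620 II, SW480 I or SW480 II (adjusted p up to 0.17, 0.13, 0.11 and 0.056). 

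CATTCC, the core of the site bound by TEAD factors, was found on either strand in the promoter windows of 6 of 12 lower members in the RefSeq table, of 4 of 10 other members and in 4928 of all 35116 windows. This list too was chosen as targets, so its share beside that of all windows says nothing about these lines. The window of CTGF held CATTCC 3 times, beginning at bases -169, -104 and -95, and that of ANKRD1 held it at -220 and -128. The stretches from base -200 to base -81 of both genes are shown with the motif in capitals, which on these strands reads as its reverse complement GGAATG.
CTGF: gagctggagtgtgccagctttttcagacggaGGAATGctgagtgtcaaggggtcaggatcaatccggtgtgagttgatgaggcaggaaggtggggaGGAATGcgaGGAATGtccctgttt
ANKRD1: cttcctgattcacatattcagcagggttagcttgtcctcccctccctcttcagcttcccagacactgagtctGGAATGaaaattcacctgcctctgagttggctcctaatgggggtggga
They lie at chr6:131951453-131951572 (minus strand) and chr10:90921168-90921287 (minus strand). CAAAGTCCA, a short form of the site of HNF4 factors, was in 0.384% of all windows. It was in 0 of 5 windows of the higher enterocyte and brush border genes (CDHR2, CA9, USH1C, EPS8L3 and CEACAM1) and in 1 of 23 of the other list members.

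Among genes of the extracellular matrix, its receptors and its proteases, more were lower than higher in SW620. Of 43 tested proteases and inhibitors 22 were lower and 3 higher (median log2 -1.51, and the same with offsets; 8 higher and 25 lower with offsets that were not centred). MMP14, a membrane-bound matrix metalloprotease, had 1.55 and 2.8 CPM in SW620 and 77.7 and 52.3 CPM in SW480 (log2 difference -4.9, SE 0.56, adjusted p = 0.00013). MMP2, the gelatinase that MMP14 activates, had 0 reads in both SW620 libraries and 1.67 and 1.4 CPM in SW480, and was at least 14.8-fold lower in SW620 (adjusted p = 0.007). MMP14 was abundant in SW480, while MMP2 was rare. The level of PLAU, the urokinase plasminogen activator, was 7.44 and 11.5 CPM in SW620 against 66.6 and 42.3 CPM in SW480 (log2 difference -2.52, SE 0.38, adjusted p = 0.00078). PLAUR, its receptor, was at 4.4 and 5.53 CPM in SW620, against 44.2 and 19.9 CPM in SW480 (log2 difference -2.69, SE 0.5, adjusted p = 0.0028). CTSS, the lysosomal protease cathepsin S, had 1 and 1 reads in SW620, against 24.4 and 49.7 CPM in SW480, a ratio of 569 (157 to 4700; adjusted p = 0.00011). The activator and its receptor were thus both lower. TMPRSS2, a transmembrane serine protease of epithelia, had 73.8 and 86.8 CPM in SW620 and 16.3 and 18.7 CPM in SW480 (log2 difference 2.2, SE 0.28, adjusted p = 0.00025). The other higher members were SERPINB1 (log2 difference 1.05) and KLK11 (log2 difference 2.93). CST1 and CST4, cystatins with close copies, were among the lower ones. Also lower were TIMP2, TIMP3, ADAM9, ADAM17, ADAM19, ADAMTS15, PLAT, SERPINE2, SERPINB8, SERPINB9, KLK10, CTSL, CTSZ and CST6 (log2 differences between -5.21 and -1.24). The calls of ADAM17, ADAMTS15, SERPINB9, CTSZ, CST6, SERPINB1, KLK11, ADAM9 and CST4 were lost in at least 1 of the fits without SW620 I, SW620 II or SW480 II (adjusted p up to 0.082, 0.28 and 0.35). 

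Of 16 tested integrin subunits 5 were lower and 1 higher, and with offsets 2 higher and 5 lower, or 4 higher and 5 lower where these were not centred. The level of ITGA3, the alpha subunit of a laminin receptor, was 8.68 and 13.4 CPM in SW620 against 679 and 306 CPM in SW480 (log2 difference -5.48, SE 0.67, adjusted p = 0.00021). ITGA1, that of a collagen receptor, was at 1.55 and 0.389 CPM in SW620, against 72.1 and 391 CPM in SW480 (log2 difference -7.85, SE 1.06, adjusted p = 0.00039). ITGAV was at 3.47 and 1.17 CPM in SW620 and 27.8 and 115 CPM in SW480 and ITGB5 at 107 and 139 CPM in SW620 and 910 and 469 CPM in SW480, and these form a vitronectin receptor together. ITGA1 and ITGAV transcripts hold under 40% GC, and both were several-fold higher in SW480 II than in SW480 I. With offsets their log2 differences were -6.68 and -3.72. Also higher was ITGB7 (log2 difference 3.27). Of 24 collagen and laminin chains 8 were lower and 2 higher. The higher chains were COL8A1 (log2 difference 2.77, SE 0.51, adjusted p = 0.0027) and COL6A1 (log2 difference 2.34, SE 0.58, adjusted p = 0.015). COL4A4 was lower as well, with at most 3 reads over both SW620 libraries. In at least 1 of the fits without SW620 II or SW480 II, COL6A1 and ITGB7 were not called (adjusted p up to 0.088 and 0.13). 

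Of 27 genes of the mesenchymal transition 12 were lower, 4 higher and 11 not called (median log2 -1.29, -1.19 with offsets). Summed over the list, levels were 3860 and 5630 CPM in SW620 and 4880 and 3100 CPM in SW480, so the lines overlapped. VIM, vimentin, with a mean of 799 CPM over the parental libraries, was not called (log2 difference -0.26), nor was SNAI2 (log2 difference -0.13). FN1, fibronectin, had 19.1 and 15.2 CPM in SW620 and 530 and 557 CPM in SW480 (log2 difference -4.99, SE 0.34, adjusted p = 8.7e-06). SPARC, a matricellular protein, had 0 reads in both SW620 libraries and 2.66 and 2.01 CPM in SW480, and was at least 22.5-fold lower in SW620 (adjusted p = 0.0019). FN1 was abundant in SW480 and SPARC rare. The level of LOXL2, a collagen crosslinking oxidase, was 1.24 and 1.56 CPM in SW620 against 35.8 and 23 CPM in SW480 (log2 difference -4.39, SE 0.48, adjusted p = 0.0001). AXL, a receptor tyrosine kinase, was at 25.6 and 37.1 CPM in SW620, against 409 and 182 CPM in SW480 (log2 difference -3.24, SE 0.4, adjusted p = 0.00024). ZEB1, a repressor of epithelial genes, was at 1.61 and 0.467 CPM in SW620 and 3.4 and 15.8 CPM in SW480. A few members were higher instead. TNC, the matrix protein tenascin C, had 424 and 425 CPM in SW620 and 102 and 49.7 CPM in SW480 (log2 difference 2.49, SE 0.4, adjusted p = 0.0012). The level of TPM2, a tropomyosin, was 203 and 334 CPM in SW620 against 53 and 42.5 CPM in SW480 (log2 difference 2.49, SE 0.45, adjusted p = 0.0023). SNAI1, another repressor, was at 13 and 22.1 CPM in SW620 and 6.73 and 3.97 CPM in SW480. Also higher was TGFBI (log2 difference 1.06). Also lower were CAV2 and CD44 (log2 differences between -2.19 and -1.65). CDH11 and NNMT were lower as well, with at most 3 reads over both SW620 libraries. NNMT, TGFBI, CAV2, ZEB1 and SNAI1 did not pass the test in at least 1 of the fits without SW620 I, SW620 II, SW480 I or SW480 II (adjusted p up to 0.15, 0.23, 0.089 and 0.16). 

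**Figure D4:**
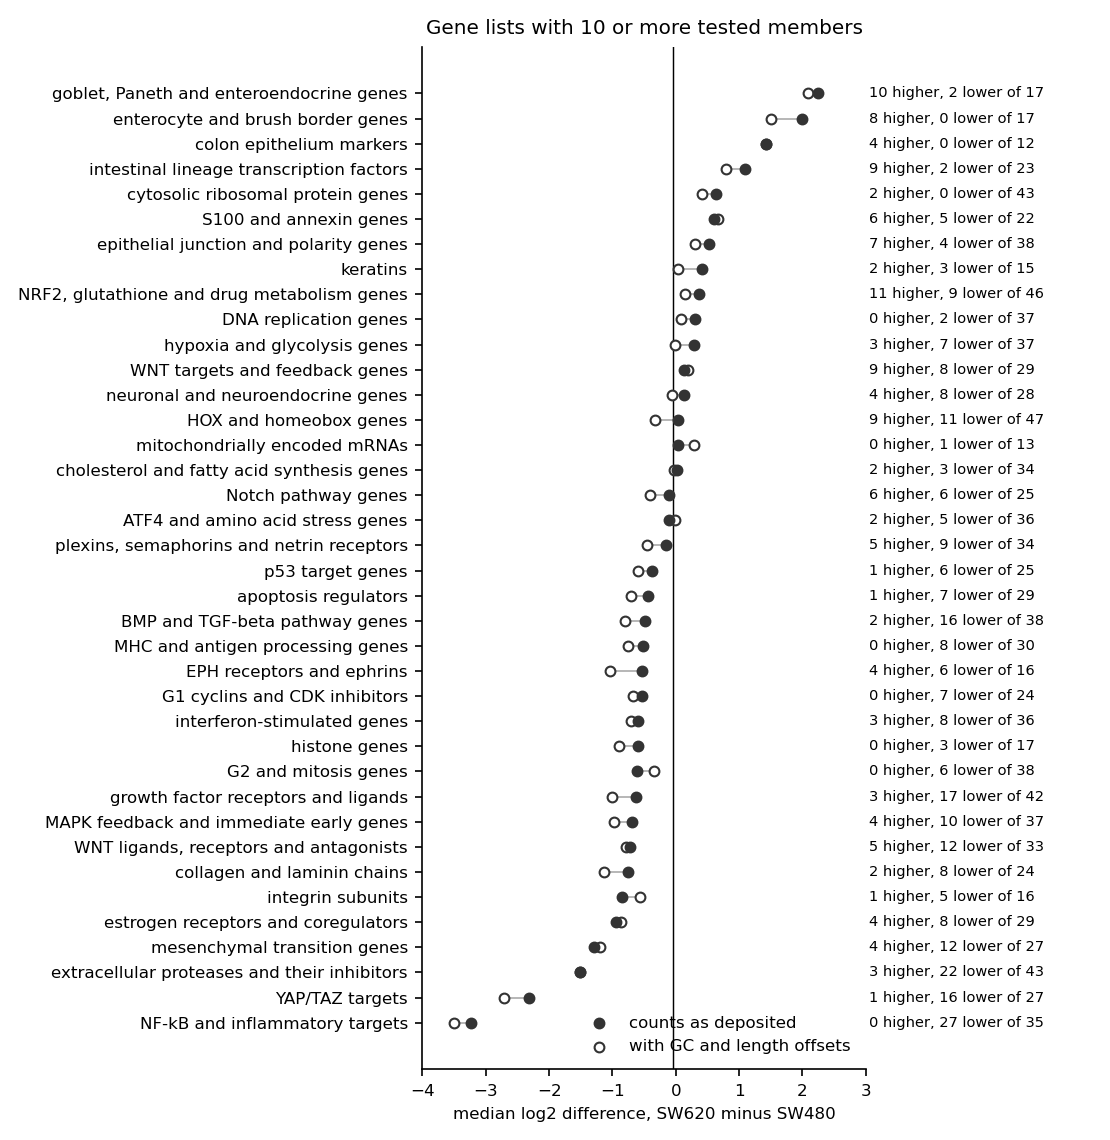
Median log2 difference between SW620 and SW480 for each gene list with 10 or more tested members (horizontal axis), with filled points from the counts as deposited and open points with GC and length offsets, and the numbers of tested members called higher and lower at the right. The lists labelled NF-kB and inflammatory targets and YAP/TAZ targets lie lowest at -3.23 and -2.31, and the line marks the median of all genes at -0.05.

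Receptors and ligands of growth factor signalling were lower on balance: 17 of 42 tested were lower and 3 higher (median log2 -0.62, -1.01 with offsets). EGFR, the receptor of epidermal growth factor, had 1 and 0 reads in SW620, against 45.2 and 67.8 CPM in SW480, a ratio of 1690 (304 to 66900; adjusted p = 4.1e-05). EREG, epiregulin, one of its ligands, was at 0.31 and 0.234 CPM in SW620, against 7.78 and 17.5 CPM in SW480 (log2 difference -5.49, SE 0.65, adjusted p = 0.00018). IGFBP3, a carrier of insulin-like growth factors, had 1.18 and 0.856 CPM in SW620 and 81.5 and 55.4 CPM in SW480 (log2 difference -6.05, SE 0.46, adjusted p = 1.6e-05). Other receptors were higher. The level of ERBB3, a partner receptor of the EGFR family, was 195 and 174 CPM in SW620 against 39.9 and 53.8 CPM in SW480 (log2 difference 1.98, SE 0.26, adjusted p = 0.0003). FGFR4, a fibroblast growth factor receptor, was at 207 and 312 CPM in SW620 and 42 and 26.4 CPM in SW480 (log2 difference 2.93, SE 0.61, adjusted p = 0.0056). Also higher was FGFR1 (log2 difference 0.88). The calls of FGFR1 and FGFR4 were lost in at least 1 of the fits without SW620 II or SW480 II (adjusted p up to 0.14 and 0.087). Downstream, 10 of 37 tested feedback and immediate early genes of the MAP kinase pathway were lower and 4 higher. DUSP5, a phosphatase of nuclear ERK, was at 2.73 and 4.44 CPM in SW620, against 78.5 and 50.5 CPM in SW480 (log2 difference -4.17, SE 0.41, adjusted p = 6.4e-05). FOS, a subunit of AP-1, had 1.8 and 1.87 CPM in SW620 and 23.2 and 31.5 CPM in SW480 (log2 difference -3.9, SE 0.36, adjusted p = 4.4e-05). The level of SPRY4, a feedback inhibitor of receptor signalling, was 19.3 and 17.1 CPM in SW620 against 102 and 133 CPM in SW480 (log2 difference -2.69, SE 0.28, adjusted p = 8.8e-05). Not all feedback genes went this way. DUSP4, another ERK phosphatase, was at 61 and 61.6 CPM in SW620, against 20.3 and 25.1 CPM in SW480 (log2 difference 1.43, SE 0.25, adjusted p = 0.002). Also higher were JUN and DUSP2 (log2 differences between 1.25 and 1.53). Also lower was FOSL2 (log2 difference -1.62). In at least 1 of the fits without SW620 II or SW480 II, DUSP2 and JUN were not called (adjusted p up to 0.27 and 0.25). Without SW480 II, 8 of the MAP kinase genes were lower and 1 higher, and without SW620 I, 5 were lower and 3 higher.

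WNT genes went in both directions. Of 33 tested ligands, receptors and antagonists 12 were lower and 5 higher, and of 29 targets 9 were higher and 8 lower, against 11.2% of all genes lower and 6.84% higher. FZD7, a Frizzled receptor, had 1 and 2 reads in SW620, against 34.8 and 36.7 CPM in SW480, a ratio of 347 (119 to 1690; adjusted p = 0.00018). FZD1, another Frizzled receptor, had 0.806 and 0.545 CPM in SW620 and 20.3 and 20.8 CPM in SW480 (log2 difference -4.9, SE 0.47, adjusted p = 5.7e-05). The level of DKK1, a secreted antagonist, was 0.93 and 0.856 CPM in SW620 against 34 and 30.4 CPM in SW480 (log2 difference -5.16, SE 0.69, adjusted p = 0.00037). The following were higher. FZD10, a Frizzled receptor as well, was at 23 and 25.2 CPM in SW620, against 4.2 and 3.14 CPM in SW480 (log2 difference 2.72, SE 0.33, adjusted p = 0.00022). SFRP5, a secreted decoy for WNT ligands, had 151 and 221 CPM in SW620 and 32.2 and 31.8 CPM in SW480 (log2 difference 2.54, SE 0.34, adjusted p = 0.00034). The level of KREMEN1, a coreceptor of DKK1, was 343 and 367 CPM in SW620 against 59.3 and 55.2 CPM in SW480 (log2 difference 2.63, SE 0.25, adjusted p = 4.6e-05). Also higher was WNT11 (log2 difference 2.45). Also lower were DKK3 and WNT9A (log2 differences between -5.4 and -4.92). Receptors and antagonists thus stood on both sides. Targets divided in the same manner. LEF1, a DNA-binding partner of beta-catenin, was at 2.54 and 3.27 CPM in SW620, against 31.7 and 47.9 CPM in SW480 (log2 difference -3.78, SE 0.43, adjusted p = 0.00013). APCDD1, a membrane antagonist of the pathway, had 92.9 and 104 CPM in SW620 and 726 and 918 CPM in SW480 (log2 difference -3.06, SE 0.27, adjusted p = 3.5e-05). The level of CCND1, cyclin D1, was 182 and 144 CPM in SW620 against 933 and 1180 CPM in SW480 (log2 difference -2.69, SE 0.29, adjusted p = 9.5e-05). These 3 were lower, and others higher. EPHB2, a receptor that sorts crypt cells, was at 308 and 398 CPM in SW620, against 94 and 69 CPM in SW480 (log2 difference 2.12, SE 0.27, adjusted p = 0.00027). EPHB3, its relative, had 62.4 and 86.4 CPM in SW620 and 9.7 and 10.1 CPM in SW480 (log2 difference 2.91, SE 0.4, adjusted p = 0.00041). The level of SMOC2, a matricellular protein of crypt stem cells, was 42.1 and 48.3 CPM in SW620 against 8.09 and 13.5 CPM in SW480 (log2 difference 2.06, SE 0.28, adjusted p = 0.00039). MYC, a further target, was at 283 and 297 CPM in SW620 and 159 and 150 CPM in SW480 (log2 difference 0.91, SE 0.25, adjusted p = 0.026). Its call was lost with the offsets (adjusted p = 0.36). MYC was not called without SW620 I, SW620 II, SW480 I or SW480 II (adjusted p = 0.078, 0.14, 0.056 and 0.12). 

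In the BMP and TGF-beta pathway 16 of 38 tested genes were lower and 2 higher (5 higher and 16 lower with offsets that were not centred). LTBP2, a matrix protein that binds latent growth factors, was at 0.186 and 0.311 CPM in SW620, against 66.8 and 50 CPM in SW480 (log2 difference -7.86, SE 0.69, adjusted p = 3.4e-05). TGFB2, a TGF-beta ligand, had 2 and 1 reads in SW620, against 5.25 and 10.3 CPM in SW480, a ratio of 79 (26.8 to 385; adjusted p = 0.00041). BMP4, a BMP ligand, had 211 and 216 CPM in SW620 and 693 and 615 CPM in SW480 (log2 difference -1.61, SE 0.23, adjusted p = 0.00051). The activin subunit went the other way. The level of INHBB, the beta B chain of activin, was 198 and 184 CPM in SW620 against 44.4 and 43.2 CPM in SW480 (log2 difference 2.12, SE 0.24, adjusted p = 0.00013). Also higher was SMAD6 (log2 difference 1.79). Also lower was LTBP1 (log2 difference -4.99). The count of lower genes was 7 without SW620 II, 8 without SW480 II and 10 without SW620 I. Of 25 Notch pathway genes 6 were higher and 6 lower. NOTCH2, a Notch receptor, was at 6.82 and 5.84 CPM in SW620, against 123 and 154 CPM in SW480 (log2 difference -4.45, SE 0.42, adjusted p = 4.6e-05). NRARP, a feedback inhibitor of Notch, had 1.92 and 1.95 CPM in SW620 and 51.7 and 34.8 CPM in SW480 (log2 difference -4.48, SE 0.38, adjusted p = 3e-05). Among the higher ones were a ligand and a modifier. The level of DLL4, a Notch ligand, was 39.8 and 53.2 CPM in SW620 against 6.61 and 6.37 CPM in SW480 (log2 difference 2.84, SE 0.31, adjusted p = 9.8e-05). LFNG, a glycosyltransferase that modifies Notch, was at 90 and 119 CPM in SW620, against 25.2 and 16.8 CPM in SW480 (log2 difference 2.32, SE 0.41, adjusted p = 0.0021). Of 16 ephrins and their receptors 4 were higher and 6 lower, EFNB3 among the lower ones (log2 difference -3.68, SE 0.47, adjusted p = 0.00027). Also higher were HES6 and JAG2 (log2 differences between 1.98 and 2.54). Also lower were DTX4 and HEY2 (log2 differences between -3.16 and -2.66). Also higher were EFNA2 and EPHB6 (log2 differences between 1.99 and 2.87). Also lower were EFNA4 and EPHA4 (log2 differences between -2.67 and -2.49). EFNA5 was lower as well, with at most 3 reads over both SW620 libraries. Of 34 plexin, semaphorin and netrin genes 5 were higher and 9 lower. NTN1, the guidance protein netrin 1, had 1 and 0 reads in SW620, against 29.4 and 15.9 CPM in SW480, a ratio of 622 (111 to 24600; adjusted p = 1.9e-05). SEMA5A, a transmembrane semaphorin, had 0 reads in both SW620 libraries and 7.6 and 11.8 CPM in SW480, and was at least 93.8-fold lower in SW620 (adjusted p = 0.00099). A class 3 semaphorin was among the higher ones. SEMA3F, a secreted semaphorin, had 80.1 and 116 CPM in SW620 and 16.6 and 10.4 CPM in SW480 (log2 difference 2.87, SE 0.54, adjusted p = 0.0032). Also higher were SEMA4G and ROBO2 (log2 differences between 2.1 and 2.83). Also lower were NRP1 and UNC5A (log2 differences between -3.74 and -2.53). The call of EPHB6 was lost without SW620 II or SW480 II (adjusted p = 0.091 and 0.097). 

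Antigen presentation and interferon genes were lower in part. Of 30 tested MHC and antigen processing genes 8 were lower and 0 higher, 2 and 0 without SW620 II, and 2 higher and 14 lower with offsets. The level of CD74, the invariant chain of class II molecules, was 0.124 and 0.156 CPM in SW620 against 34.4 and 19 CPM in SW480 (log2 difference -7.51, SE 0.88, adjusted p = 0.00022). HLA-B, which has several alternative copies in the annotation so that its level is uncertain, was at 22.1 and 34.6 CPM in SW620 and 170 and 88.2 CPM in SW480. Also lower were CD59 and CD274 (log2 differences between -2.88 and -1.41). In at least 1 of the fits without SW620 I, SW620 II, SW480 I or SW480 II, HLA-B and CD274 were not called (adjusted p up to 0.1, 0.088, 0.065 and 0.061). Of 36 interferon-stimulated genes 8 were lower and 3 higher, with offsets 7 higher and 15 lower, and with offsets not centred 8 higher and 13 lower. In the counts as deposited the share higher lies near the 6.84% of all genes. BST2, tetherin, which holds virus particles at the cell surface, was at 0.806 and 1.17 CPM in SW620, against 7.9 and 5.06 CPM in SW480 (log2 difference -2.71, SE 0.48, adjusted p = 0.0022). IFI27, a mitochondrial interferon-induced protein, had 0.496 and 0.156 CPM in SW620 and 4.82 and 4.28 CPM in SW480 (log2 difference -3.72, SE 0.66, adjusted p = 0.0021). In the same list some were higher. The level of MX2, an antiviral GTPase, was 15 and 13.3 CPM in SW620 against 2.35 and 4.1 CPM in SW480 (log2 difference 2.13, SE 0.37, adjusted p = 0.002). USP18, a protease that removes ISG15, was at 7.32 and 6.46 CPM in SW620, against 1.61 and 1.57 CPM in SW480 (log2 difference 2.11, SE 0.41, adjusted p = 0.0036). GBP2 and GBP3, guanylate-binding proteins, went in opposite directions, GBP2 at 1.12 and 1.17 CPM in SW620 and 0 and 0.0873 CPM in SW480 and GBP3 at 0 and 0 CPM in SW620 and 1.91 and 7.11 CPM in SW480. IFITM1 was lower as well, with at most 3 reads over both SW620 libraries. Without SW620 II the interferon counts were 3 higher and 4 lower.

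Of 24 tested G1 cyclins and inhibitors of the cell cycle 7 were lower and 0 higher, 4 and 0 without SW480 II or without SW620 II, and 2 higher and 8 lower with offsets that were not centred. CDKN1A, the inhibitor p21, a target of p53, had 1.05 and 1.17 CPM in SW620 and 98.8 and 60.3 CPM in SW480 (log2 difference -6.15, SE 0.55, adjusted p = 3.4e-05). The level of CDKN2B, the inhibitor p15, was 3.72 and 2.49 CPM in SW620 against 19.4 and 36 CPM in SW480 (log2 difference -3.15, SE 0.45, adjusted p = 0.00056). CCND2, cyclin D2, had 1 and 1 reads in SW620, against 5.74 and 4.67 CPM in SW480, a ratio of 74.1 (20.2 to 616; adjusted p = 0.0002). Of 25 p53 target genes 6 were lower and 1 higher, and of 29 apoptosis regulators 7 were lower and 1 higher. In both lists the share higher does not exceed the 6.84% of all genes. FAS, a death receptor, was at 0.248 and 0.156 CPM in SW620, against 5.19 and 23.1 CPM in SW480 (log2 difference -6.06, SE 1.04, adjusted p = 0.0018). PMAIP1, the BH3 protein NOXA, had 3.53 and 2.49 CPM in SW620 and 18 and 50.5 CPM in SW480 (log2 difference -3.5, SE 0.51, adjusted p = 0.00057). Also higher was BTG2 (log2 difference 1.27). Also lower were PHLDA3 and TP53INP1 (log2 differences between -3.42 and -3.24). Also higher was CASP4 (log2 difference 1.24). Also lower was CASP10 (log2 difference -4.11). Without SW480 II these counts were 1 higher and 3 lower and 1 higher and 4 lower, and without SW620 II they were 0 higher and 3 lower and 0 higher and 4 lower. Of 38 G2 and mitosis genes 6 were lower and 0 higher, and 0 were called without SW620 II or without SW480 II. With offsets the count was 5 higher and 10 lower (median log2 -0.61 as deposited, -0.34 with offsets). Among them ASPM, a spindle protein, was at 3.04 and 1.01 CPM in SW620 and 8.27 and 58.7 CPM in SW480, and its log2 difference was -4.03 as deposited and -2.17 with offsets. Also lower were TTK, HMMR and KIF14 (log2 differences between -4.21 and -3.38). BTG2, PHLDA3, CASP4, TP53INP1, TTK, HMMR, KIF14 and ASPM did not pass the test in at least 1 of the fits without SW620 I, SW620 II, SW480 I or SW480 II (adjusted p up to 0.091, 0.13, 0.11 and 0.2). The level of ASPM in SW480 II was several-fold that in SW480 I. Over all genes under 40% GC, 15 were higher and 279 lower (median log2 -1.4), and 162 were higher and 299 lower with offsets (median -0.16). The part of base composition in the mitosis calls was not tested. Of 37 DNA replication genes 2 were lower and 0 higher, of 43 ribosomal protein genes 2 were higher and 0 lower, of 13 mitochondrial mRNAs 1 was lower and 0 higher, and of 17 histone genes 3 were lower and 0 higher. Also lower were RRM2 and RFC3 (log2 differences between -2.25 and -1.33). Also higher were RPS23 and RPS4X (log2 differences between 1.1 and 1.51). Also lower was MT-ND6 (log2 difference -1.27). Also lower were HIST1H2BK, HIST1H4H and HIST1H2AC (log2 differences between -1.77 and -1.05). The calls of RRM2, RFC3, MT-ND6, HIST1H2BK, HIST1H4H, HIST1H2AC and RPS4X were lost in at least 1 of the fits without SW620 I, SW620 II, SW480 I or SW480 II (adjusted p up to 0.16, 0.27, 0.084 and 0.33). The shares called in the replication, ribosomal and mitochondrial lists do not exceed those of all genes, 6.84% higher and 11.2% lower, in the counts as deposited. With offsets, where 13.1% of all genes were higher, the replication list had 6 higher and 2 lower genes and the ribosomal list 7 higher and 0 lower, and without SW480 I the ribosomal list had 10 higher and 0 lower.

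In metabolism, 11 of 46 genes of glutathione and drug metabolism were higher and 9 lower. The level of GPX2, the gut glutathione peroxidase, was 691 and 1020 CPM in SW620 against 122 and 102 CPM in SW480 (log2 difference 2.93, SE 0.39, adjusted p = 0.00034). ALDH2, a mitochondrial aldehyde dehydrogenase, was at 129 and 178 CPM in SW620, against 30.9 and 28.3 CPM in SW480 (log2 difference 2.37, SE 0.25, adjusted p = 8.3e-05). AKR1B1, aldose reductase, had 114 and 185 CPM in SW620 and 32.6 and 19.2 CPM in SW480 (log2 difference 2.52, SE 0.42, adjusted p = 0.0014). These 3 enzymes were higher, and others lower. The level of CYP24A1, the enzyme that inactivates vitamin D, was 0.434 and 0.311 CPM in SW620 against 87.3 and 108 CPM in SW480 (log2 difference -7.99, SE 0.8, adjusted p = 6.8e-05). ALDH1A3, an enzyme of retinoic acid synthesis, was at 13.5 and 10.4 CPM in SW620, against 217 and 436 CPM in SW480 (log2 difference -4.77, SE 0.66, adjusted p = 0.00045). Also higher was AKR1C3 (log2 difference 2.68). Also lower were HMOX1 and MGST2 (log2 differences between -2.23 and -1.51). Without SW620 II the counts were 6 higher and 4 lower. Of 37 hypoxia and glycolysis genes 3 were higher and 7 lower, against 6.84% of all genes higher and 11.2% lower. The share higher lies near that of all genes. EPAS1, the hypoxia-inducible factor HIF-2 alpha, had 2 and 0 reads in SW620, against 40.9 and 62.8 CPM in SW480, a ratio of 778 (215 to 6430; adjusted p = 6.4e-05). NDRG1, a gene induced by low oxygen and other stress, had 1.36 and 3.5 CPM in SW620 and 209 and 132 CPM in SW480 (log2 difference -6.14, SE 0.74, adjusted p = 0.0002). The level of SLC2A3, the glucose transporter GLUT3, was 20.5 and 17.6 CPM in SW620 against 898 and 894 CPM in SW480 (log2 difference -5.55, SE 0.36, adjusted p = 6e-06). Set beside these, CA9 was higher. Also higher were EGLN3 and CA12 (log2 differences between 1.45 and 3.11). Also lower was P4HA2 (log2 difference -2.55). The call of CA12 was lost without SW620 I or SW480 II (adjusted p = 0.064 and 0.088). Of 34 cholesterol and fatty acid genes 2 were higher and 3 lower, of 36 ATF4 and amino acid stress genes 2 were higher and 5 lower, and of 22 S100 and annexin genes 6 were higher and 5 lower, with ANXA6, a membrane-binding annexin, at 4.59 and 8.1 CPM in SW620 and 928 and 449 CPM in SW480 (log2 difference -6.77, SE 0.56, adjusted p = 2.4e-05). Also higher was SCD (log2 difference 1.48). Also lower were STARD4 and INSIG1 (log2 differences between -3.78 and -1.51). Also higher were ALDH18A1 and PYCR1 (log2 differences between 1.06 and 2.03). Also lower were VLDLR, STC2, SLC7A11 and SLC7A1 (log2 differences between -4.22 and -1.17). Also higher were ANXA9, ANXA4 and S100A1 (log2 differences between 0.93 and 3.43). ANXA13 was higher as well, with at most 3 reads over both SW480 libraries. Also lower were ANXA2, ANXA1 and S100A2 (log2 differences between -4.87 and -1.86). SCD, INSIG1, PYCR1, SLC7A1, ANXA4, ANXA13, S100A2, STARD4, ALDH18A1, SLC7A11, ANXA9, S100A1 and ANXA1 did not pass the test in at least 1 of the fits without SW620 I, SW620 II, SW480 I or SW480 II (adjusted p up to 0.12, 0.25, 0.075 and 0.31). The S100 and annexin counts were 0 higher and 5 lower without SW480 II and 1 higher and 4 lower without SW620 II. Those of the cholesterol list were 0 higher and 3 lower without SW480 II, 1 higher and 0 lower without SW620 II and 6 higher and 2 lower without SW480 I, and the shares called in it and in the ATF4 list lie near those of all genes. With offsets the S100 and annexin list had 11 higher and 6 lower, and with offsets that were not centred the cholesterol list had 10 higher and 6 lower and the ATF4 list 4 higher and 6 lower.

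Among nuclear receptors and coregulators 8 of 29 tested were lower and 4 higher. NR2F2, the orphan receptor COUP-TFII, was at 22.5 and 15.3 CPM in SW620, against 86.5 and 97.2 CPM in SW480 (log2 difference -2.28, SE 0.34, adjusted p = 0.0007). PPARG, a fatty acid receptor, had 44 and 41.4 CPM in SW620 and 9.08 and 14.5 CPM in SW480 (log2 difference 1.85, SE 0.38, adjusted p = 0.0052). The level of GPER1, a membrane estrogen receptor, was 65.3 and 88.7 CPM in SW620 against 8.21 and 9.64 CPM in SW480 (log2 difference 3.11, SE 0.41, adjusted p = 0.00035). Also higher were NR0B2 and NR1H3 (log2 differences between 1.52 and 3.44). Also lower were HSD17B2 and NR3C1 (log2 differences between -5.76 and -2.95). The calls of NR1H3 and NR0B2 were lost in at least 1 of the fits without SW620 I, SW620 II, SW480 I or SW480 II (adjusted p up to 0.053, 0.28, 0.051 and 0.27). ESR2 had at most 2 reads in any parental library, and its difference did not pass the test (adjusted p = 0.13).

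Homeobox genes differed in both directions. Of 47 HOX and related genes 11 were lower and 9 higher, against 7 higher and 20 lower with offsets and 0 higher and 8 lower from the 4 parental libraries alone. Grouped by cluster, a grouping made after the values were seen, 6 of 9 tested HOXB genes were lower and 0 higher (median log2 -2.2, -2.36 with offsets), 0 of 8 tested HOXC genes were lower and 3 higher (median log2 1.17, 0.9 with offsets), 0 of 11 tested HOXA genes were lower and 4 higher (median log2 0.86, 0.58 with offsets) and 0 of 5 tested HOXD genes were lower and 1 higher (median log2 -1.32, -1.38 with offsets). HOX genes mark position along the body axis. HOXB6, a gene of the middle of the cluster, was at 29.1 and 21.5 CPM in SW620, against 129 and 111 CPM in SW480 (log2 difference -2.25, SE 0.27, adjusted p = 0.00018). HOXB8, its neighbour, had 42.9 and 46 CPM in SW620 and 272 and 181 CPM in SW480 (log2 difference -2.35, SE 0.32, adjusted p = 0.00044). The level of MSX1, a homeobox target of BMP signals, was 9.55 and 10.4 CPM in SW620 against 216 and 144 CPM in SW480 (log2 difference -4.17, SE 0.31, adjusted p = 1.5e-05). The higher ones included HOXC genes. HOXC13, the last gene of that cluster, was at 21.2 and 23.2 CPM in SW620, against 6.36 and 5.72 CPM in SW480 (log2 difference 1.88, SE 0.28, adjusted p = 0.00064). HOXC10, a gene close to it, had 47 and 47.4 CPM in SW620 and 15.3 and 18.5 CPM in SW480 (log2 difference 1.48, SE 0.27, adjusted p = 0.0024). An antisense transcript was tested beside HOXB6, HOXC10 and HOXC13, and reads of the pairs may be mixed if counting ignored the strand. Also higher were HOXA11 and HOXD9 (log2 differences between 1.2 and 1.76). Also lower was HOXB2 (log2 difference -4.24). In at least 1 of the fits without SW620 II or SW480 II, HOXA11 and HOXD9 were not called (adjusted p up to 0.094 and 0.11). Without SW620 II 7 of the HOX and related genes were lower and 2 higher. Of 28 neuronal genes 4 were higher and 8 lower. The level of GAP43, a growth cone protein, was 15.1 and 17.8 CPM in SW620 against 1.91 and 3.1 CPM in SW480 (log2 difference 2.7, SE 0.36, adjusted p = 0.00036). BEX4, a brain-expressed X-linked gene, had 0 reads in both SW620 libraries and 5 and 5.59 CPM in SW480, and was at least 51.1-fold lower in SW620 (adjusted p = 0.00037). Also higher were SYT11, DPYSL3 and NRCAM (log2 differences between 1.58 and 2.05). Also lower were DPYSL5, MAPT and TUBB4A (log2 differences between -5.76 and -2.63). The call of NRCAM was lost without SW620 I, SW480 I or SW480 II (adjusted p = 0.4, 0.15 and 0.053). Of 38 cancer-testis antigens, genes normally silent outside the germ line, 4 were tested and 3 were higher (3 higher and 1 lower with offsets). The other 34 did not pass the filter on low counts. MAGEB2, a MAGE family member on the X chromosome, was at 10.7 and 12.5 CPM in SW620, against 0.432 and 1.27 CPM in SW480 (log2 difference 3.72, SE 0.45, adjusted p = 0.0002). MAGEA11, another MAGE gene on that chromosome, was at 1.18 and 1.87 CPM in SW620 and had 0 reads in both SW480 libraries, at least 19.9-fold higher in SW620 (adjusted p = 0.002). MAGEA12 was higher as well, with at most 3 reads over both SW480 libraries. MAGEA11 and MAGEA12 passed the filter only through libraries other than parental SW480, so the count of higher antigens follows in part from the filter. PASD1, another cancer-testis gene outside that list, had no read in SW620 and 88.9 and 70.3 CPM in SW480.

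Differences gathered in parts of the genome. Chromosome 16 had 127 of 764 tested genes higher in SW620 (16.6%) and 43 lower (5.63%), and chromosome 13 had 13 of 314 higher (4.14%) and 87 lower (27.7%). In overlapping windows of 40 neighbouring expressed genes, starting every 10 genes in the order of the reference annotation, the median log2 difference with offsets ran from -1.46 to 1.04 over 1368 windows, with 5% below -0.67 and 5% above 0.4. The highest window lay on chromosome 16 between KIAA0895L and PRMT7, where 24 of 40 genes were higher and 0 lower. The lowest lay on chromosome 13 between HSPH1 and DNAJC15, where 24 of 40 were lower and 0 higher. Other low windows lay on chromosome 19 between PSG11 and CLASRP (median -1.15) and on chromosome 3 between PA2G4P4 and FNDC3B (-1.13). A high one lay on chromosome 10 between KIAA1279 and DNAJC9 (0.81). The median GC content of transcripts was 56.2% on chromosome 16 and 44.9% on chromosome 13, and their medians of all genes were 0.52 and -0.82 as deposited and 0.25 and -0.46 with offsets. DNA copy number was not measured.

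**Figure D5:**
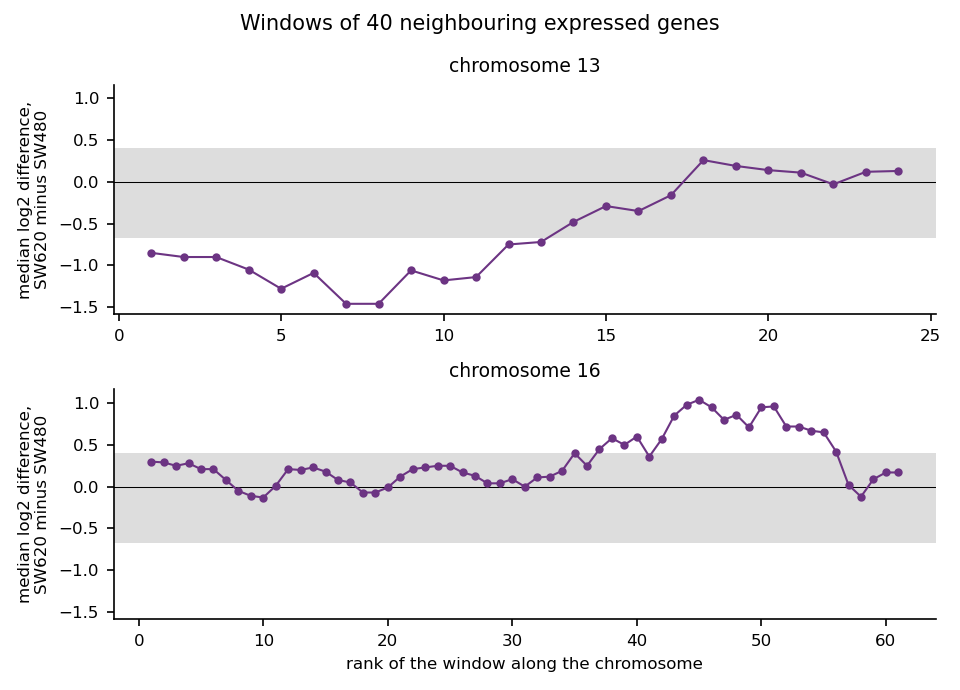
Median log2 difference between SW620 and SW480, with GC and length offsets, of windows of 40 neighbouring expressed genes along chromosomes 13 and 16 (upper and lower panel), by rank of the window's first gene in the order of the annotation. The band holds the middle 90% of all 1368 windows, from -0.67 to 0.4; windows on chromosome 13 reach -1.46 and windows on chromosome 16 reach 1.04.

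Whether the lines also differed in this way after transduction was tested with the empty vector libraries. The line difference differed between parental and empty vector libraries in 1258 genes (7.2% of those tested, edgeR's quasi-likelihood test of the interaction). SW480 empty vector libraries I and II were unlike each other, with 4.84% and 7.18% of reads from mitochondrial mRNA. Their median log2 deviations were 0.31 and -1.35 in genes under 40% GC, and -0.54 and 1.23 in genes of 60% and over. The effect of this on the comparison was not tested. TNFAIP2 had 4.7 and 3.62 CPM in SW620 with empty vector and 2.93 and 5.57 CPM in SW480 with empty vector, and the parental difference minus that of these libraries was -6.49 on the log2 scale (SE 0.56, adjusted p = 0.00021). CXCL1 had 1.04 and 0.776 CPM in SW620 with empty vector and 0.601 and 0.334 CPM in SW480 with empty vector, and the parental difference minus that of these libraries was -6.01 on the log2 scale (SE 0.64, adjusted p = 0.0006). FN1 had 12.2 and 10.8 CPM in SW620 with empty vector and 13.6 and 9.46 CPM in SW480 with empty vector, and the parental difference minus that of these libraries was -4.97 on the log2 scale (SE 0.44, adjusted p = 0.00021). HNF4A had 191 and 163 CPM in SW620 with empty vector and 198 and 248 CPM in SW480 with empty vector, and the parental difference minus that of these libraries was 2.5 on the log2 scale (SE 0.33, adjusted p = 0.0015). In these genes the SW480 libraries with empty vector lay near the SW620 libraries and apart from parental SW480. Not all genes went this way. DEFA5, the Paneth cell defensin, was at 4.87 and 4.35 CPM in SW620 with empty vector and 0 and 0 CPM in SW480 with empty vector. IGFBP7, the growth factor binding protein described above, was at 0.058 and 0.0518 CPM in SW620 with empty vector and 1.73 and 2 CPM in SW480 with empty vector. SGPP2, a sphingosine phosphate phosphatase, was at 6.67 and 6.21 CPM in SW620 with empty vector and 0 and 0.111 CPM in SW480 with empty vector. In these 3 genes the empty vector libraries of the lines did not overlap, but only IGFBP7 kept the direction of the parental lines. DEFA5 and SGPP2 were lower in parental SW620 (log2 differences -1.94 and -1.97) and higher in SW620 with empty vector. The genes of this paragraph were chosen after their values were seen. The count was 345 without the second and 526 without the first SW620 library with empty vector, and 7778 without the first SW480 library with empty vector. It was 451 and 797 without parental SW620 II and I, and 2345 and 727 without parental SW480 I and II.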

How the data were processed

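RNA-seq libraries of 16 samples were deposited with 2 tables. The gene counts are whole reads per Ensembl gene as deposited by the authors, and the FPKM values (fragments scaled to gene length and depth) are the authors' own and were used only for alternatives. The submitters' processing notes name TopHat2 2.0.4, SAMtools, Picard 1.29, HTSeq 0.6.1, Cufflinks 2.1.1 and GRCh37, with no role given. No source used here says whether counting took account of the strand. All 32 sample columns were mapped to labels and 0 other columns were left.

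Counts were fitted in R 4.3.3 with edgeR 4.0.16 (filterByExpr, TMM, quasi-likelihood test, Benjamini-Hochberg adjusted p under 0.05) over all 16 libraries in 8 groups, with parental SW620 minus parental SW480 as the contrast. Alternatives used DESeq2 1.42.0, limma 3.58.1, GC and length offsets (smooth curves with 5 degrees of freedom) and fewer libraries. GC content and gene order came from a GRCh38 annotation. The fits were tested on simulated data.

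Named genes were, in each direction, the 20 largest called differences with a mean of at least 5 CPM in the higher line and no overlap between lines, up to 4 called genes per list by p, all called members of lists with a median beyond 1 on the log2 scale, and cell type markers. Members and lists were chosen with earlier results of these data known. A few genes that this rule names are not reported here.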

Additional observations from a re-analysis of the deposited data

Results flagged for a closer look

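The line difference itself differed between the parental and the empty vector libraries in 1258 genes in edgeR's quasi-likelihood test of the interaction, of which 525 were positive and 733 negative. Of these, 1147 were also called between the parental lines, against 18.0% of all genes tested. Both tests hold the same parental difference, so this overlap is in part built in. Among the called genes named in the text, 175 had such a difference, and the same dependence applies to them. The genes higher and lower in parental SW620 had median differences of 1.99 and -3.08 on the log2 scale between the parental lines, and of 0.04 and 0.01 between the empty vector libraries labelled SW620 and SW480. What the transduced libraries labelled SW480 were made from was not tested.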

How the results depend on the processing

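The count of called genes (3147) was 5571 over 12 libraries without the transduced SW480 ones, 1482 from the 4 parental libraries alone, 5679 with GC and length offsets, 6001 with offsets that were not centred and 1581 against a minimum fold of 2. Leaving out 1 parental library gave 1358 to 3910 calls, and 3524 to 6384 with offsets as well. The higher genes (1194) numbered 2244, 440, 2285, 3173 and 461 under the same 5 settings, 514 to 1218 without 1 library and 1405 to 2409 with offsets too (1836 without SW620 I). The lower genes (1953) numbered 3327, 1042, 3394, 2828 and 1120, 844 to 2692 without 1 library and 2119 to 3975 with offsets too, 1272 from log2 FPKM with a pseudocount of 0.1 and 3191 without a filter on low counts. DESeq2 called 4121 and limma-voom 3201.

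The differences of library II from library I had a correlation of -0.86 between the lines, and of -0.69 with offsets. In genes under 40% GC the medians of these differences were -0.93 in SW620 and 1.64 in SW480 on the log2 scale. Such a correlation cannot tell whether libraries of the same replicate number shared a culture or batch. With the replicate block 2570 genes were called over 16 libraries and 1054 (197 higher, 857 lower) over the 4 parental libraries. With the crossed block, chosen after seeing the data, these were 8772 (3677 higher, 5095 lower).

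The interaction count (1258) was 2784 with DESeq2, 3592 with offsets, 829 with the replicate block, and 345 to 7778 without 1 library. Of 315 called genes named in the text, 91 lost the call without at least 1 parental library, 80 with the 4 parental libraries alone, 7 with offsets, 9 with DESeq2 and 4 with limma-voom. There were 146 lost with the replicate block over the 4 parental libraries, 75 against a minimum fold of 2 and 37 to 51 from log2 FPKM. HIST1H2AC reversed, to 0.03 on the log2 scale, with offsets and without SW480 I. The settings with offsets that left out a library, the offsets that were not centred and the 4 libraries with offsets were chosen after seeing the data. The causes of these shifts were not tested.

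Genes at 0 reads in both libraries of a line are limited by a floor of 3 reads over the 2 libraries, which is 0.104 CPM in SW620 and 0.0767 CPM in SW480.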

Other observations

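Of the called genes, 7 had a mean of at least 200 CPM over the 4 parental libraries and a log2 difference beyond 5, limits that were set with the values known. ITGA3, SLC2A3, KRT5 and ANXA6 are described above, and the other 3 stood on no list. TGM2, which encodes tissue transglutaminase, a crosslinker of proteins, was at 17.4 and 24.3 CPM in SW620 and 9240 and 3970 CPM in SW480 (log2 difference -8.31, SE 0.65, adjusted p = 1.9e-05 in edgeR's quasi-likelihood test). It was thus one of the most abundant messages of SW480 and rare in SW620. NGFR, a receptor of nerve growth factor, was at 11.3 and 14.8 CPM in SW620 and 943 and 637 CPM in SW480 (log2 difference -5.92). GABARAPL1, a protein of autophagosomes, was at 2.6 and 2.41 CPM in SW620 and 534 and 429 CPM in SW480 (log2 difference -7.58). In the libraries with empty vector, TGM2 was at 32.6 and 28.6 CPM in those labelled SW620 and 79.8 and 209 CPM in those labelled SW480.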
